A study of Mus musculus with 4 samples.

Results

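Motor neurons of the spinal cord release acetylcholine onto muscle, and 10 genes of these cells were followed here: Chat, Slc5a7, Slc18a3, Ache, Isl1, Isl2, Mnx1, Ret, Mmp9 and Esrrb. They were taken by symbol out of the 22096 gene symbols in the deposited tables, and all 10 were measured. Levels were read from 4 RNA sequencing libraries of whole mouse spinal cord at postnatal day 8. The 2 cKO libraries came from animals of genotype Chd7f/f; Olig1-cre, and the 2 Ctrl libraries from animals of genotype Chd7f/+; Olig1-cre. Both groups therefore carried the Olig1-driven Cre recombinase and at least one floxed Chd7 allele, and the controls kept one unfloxed allele of this chromatin remodeler. The strain background is given as mixed in both groups. The labels do not say whether the replicates of a group were separate animals, so p-values measure only the spread between these libraries.

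As background, acetylcholine is made from choline and acetyl-CoA by the enzyme that Chat encodes, loaded into synaptic vesicles by the transporter of Slc18a3, and broken down in the synaptic cleft by the esterase of Ache. The released choline is taken back up by the transporter of Slc5a7. Motor neurons and most oligodendrocyte precursors of the cord arise one after the other from the same ventral progenitor domain, which expresses Olig1 and Olig2. Whether Cre acted in motor neurons was not measured here.

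Slc18a3 and Chat form one locus, and the position of their start sites bears on how their levels are read. On mm9, the build of the deposited tables, Chat spans chr14:33221389-33279095 and Slc18a3 lies inside it at chr14:33275623-33278036. The start of Slc18a3 lies 1059 bases downstream of the Chat start. In the GENCODE M21 annotation both genes run on the minus strand, Chat has 16 exons, and the 1 exon of Slc18a3 sits within intron 1 of Chat with no exon base in common. Any unspliced Chat RNA would thus add fragments to Slc18a3, and its amount was not tested.

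**Figure D1:**
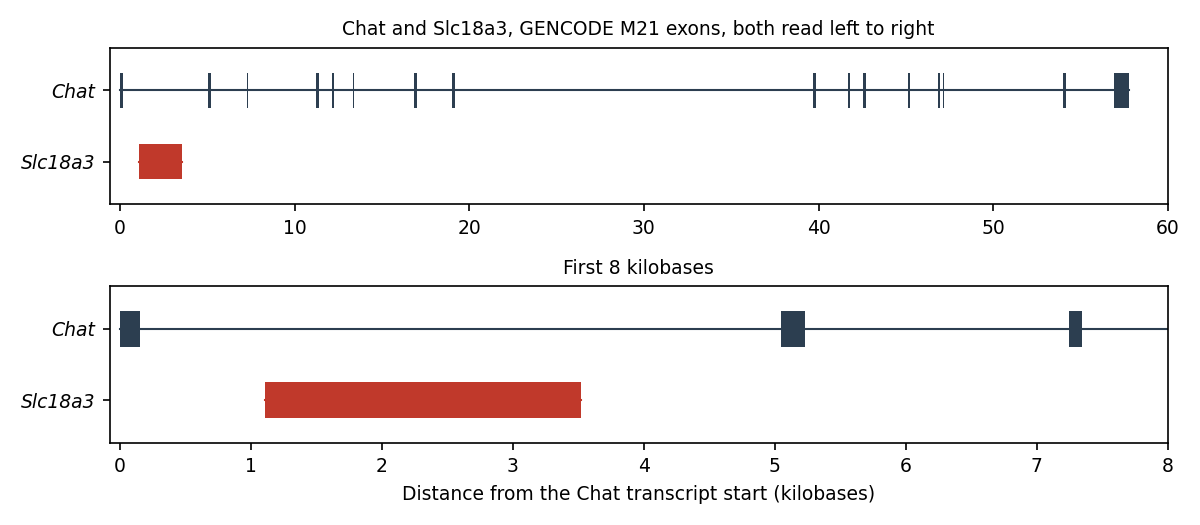
Exons of Chat (upper row of each panel) and Slc18a3 (lower row) against distance from the Chat transcript start in kilobases, with boxes for exons and lines for introns. The Slc18a3 exon lies between exons 1 and 2 of Chat, as the enlarged lower panel shows.

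The deposited tables also list transcripts from separate start sites of Esrrb, which encodes an estrogen-related orphan nuclear receptor. Its 2 listed transcripts begin 60527 bases apart. The one that starts upstream was listed at no more than 4.5e-05 FPKM (fragments scaled to transcript length and to all mapped fragments) in any library, and the one that starts downstream carried nearly all of the estimated level. The sequences upstream of the Slc18a3 start and of both Esrrb starts are shown to describe these start sites. Whether the levels below depend on them was not tested. They are the 250 bases before each start, from RefSeq on GRCm38.p6, with letters in capitals that match, on either strand, the GC box GGGCGG, the CCAAT box, the cAMP response half-site TGACG, the TATA box written as TATAAA or the homeodomain core written as TAATTA. The windows are chr14:32464851-32465100 on the minus strand for Slc18a3, chr12:86421394-86421643 on the plus strand for the downstream Esrrb start and chr12:86360867-86361116 on the plus strand for the upstream Esrrb start.
Slc18a3: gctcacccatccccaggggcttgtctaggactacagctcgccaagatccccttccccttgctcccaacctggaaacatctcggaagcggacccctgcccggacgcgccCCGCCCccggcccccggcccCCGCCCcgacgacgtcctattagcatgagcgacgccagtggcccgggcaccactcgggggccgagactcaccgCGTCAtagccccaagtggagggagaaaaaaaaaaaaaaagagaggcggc
Esrrb, downstream start: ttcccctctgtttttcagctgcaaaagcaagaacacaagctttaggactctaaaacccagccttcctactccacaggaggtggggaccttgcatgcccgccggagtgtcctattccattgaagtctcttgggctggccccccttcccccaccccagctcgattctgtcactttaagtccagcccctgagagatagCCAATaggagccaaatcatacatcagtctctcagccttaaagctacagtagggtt
Esrrb, upstream start: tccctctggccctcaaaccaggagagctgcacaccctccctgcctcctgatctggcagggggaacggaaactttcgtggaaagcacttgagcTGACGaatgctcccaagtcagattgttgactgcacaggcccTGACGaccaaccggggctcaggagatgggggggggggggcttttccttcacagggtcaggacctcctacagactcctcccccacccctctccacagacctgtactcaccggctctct
The Slc18a3 window held GGGCGG at 2 places and TGACG at 1, the downstream Esrrb window held CCAAT at 1 place, and the upstream Esrrb window held TGACG at 2. RefSeq windows were at hand for 8 of the 10 genes, in 9 windows, and not for Ret and Mmp9. GGGCGG was in 4 of these 9 windows and in 32.7% of all 32851 windows of this length, and CCAAT was in 5 against 33.8%. TGACG was in 5 of the 9 windows, those of Isl2, the upstream Esrrb start, Isl1, Chat and Slc18a3, against 17.8% of all windows. These 5 windows held from 54.8% to 71.2% G and C, against a median of 52.4% over all windows. The shares were not adjusted for base composition. The upstream Esrrb window is counted though its transcript had almost no estimated level, and the downstream Esrrb window held no TGACG. In GENCODE M21 the windows of Isl2, Isl1 and Chat overlap exons of the same gene, and that of Slc18a3 overlaps an exon of the antisense gene Gm2990. TATAAA was in the Slc5a7 window (12.4% of all), and TAATTA was in none of the 9 (4.84% of all). A match of letters is a description and does not show that a factor binds there.

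The libraries differed in depth, in surrounding tissue and in sex-linked transcripts. Relative depth, from the ratio of coverage to FPKM, was 2.22 and 3.19 in cKO 1 and 2, against 2.07 and 1.0 in Ctrl 1 and 2. Ctrl 1 stood apart in tissue around the cord: the summed level of 5 Schwann cell genes was 2.05 and 1.56 FPKM in cKO 1 and 2, against 56.4 and 6.18 FPKM in Ctrl 1 and 2, and that of 8 genes of meninges was 33.2 and 36.1 FPKM against 261.5 and 56.5 FPKM. Xist, expressed from the inactive X chromosome, was at 19.6 and 0.233 FPKM in cKO 1 and 2 and at 55.6 and 51.8 FPKM in Ctrl 1 and 2, and the Y-linked Ddx3y was at 11.6 FPKM in cKO 2 and at no more than 0.195 FPKM in the other libraries. The share that sex had in the results was not tested. The summed level of 10 oligodendrocyte and myelin genes was 6684 and 10490 FPKM in cKO 1 and 2, against 16430 and 18680 FPKM in Ctrl 1 and 2. Of the 10, 9 fell by the rule given below, against 6.54% of all gene sums tested. FPKM is a share of all fragments, so such values move with every other gene of the library, and in whole cord fewer cells of a type and less RNA per cell cannot be told apart. Chd7 itself, the targeted gene, was at 2.52 and 3.38 FPKM in cKO 1 and 2 and at 3.52 and 3.12 FPKM in Ctrl 1 and 2 (limma adjusted p = 0.657). Which exons Cre removes is not stated in the sources used here, and the value is a total over the whole transcript and all cells, so it says little about the genotypes.

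The cholinergic motor neuron genes were all detected in cKO cords, and 9 of the 10 had a higher mean there than in Ctrl cords. The same 9 had a positive log2 fold change, against 49.5% of all gene sums tested. Isl2, among the 9, reached the mean of 1 FPKM needed for the test only through cKO 1. Slc18a3 was the 1 gene of the 10 that rose past the threshold, an adjusted p of 0.05 in limma, a linear model with spread shared over genes, and none fell. Over all 12913 gene sums tested, 4.13% rose and 6.54% fell by the same rule, so 1 call in 10 genes is too few to read as a property of the group. At an unadjusted p under 0.05, 4 of the 10 were higher (Slc18a3, Esrrb, Ret and Mmp9, against 10.4% of all gene sums) and 0 were lower. Both cKO libraries lay above both Ctrl libraries for 8 of the 10 genes and below them for 0, where 24.3% and 29.3% of all gene sums did so. The median log2 fold change, cKO minus Ctrl, on the log2(FPKM + 1) scale was 0.30 for the 10 genes, against -0.003 for all gene sums.

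**Figure D2:**
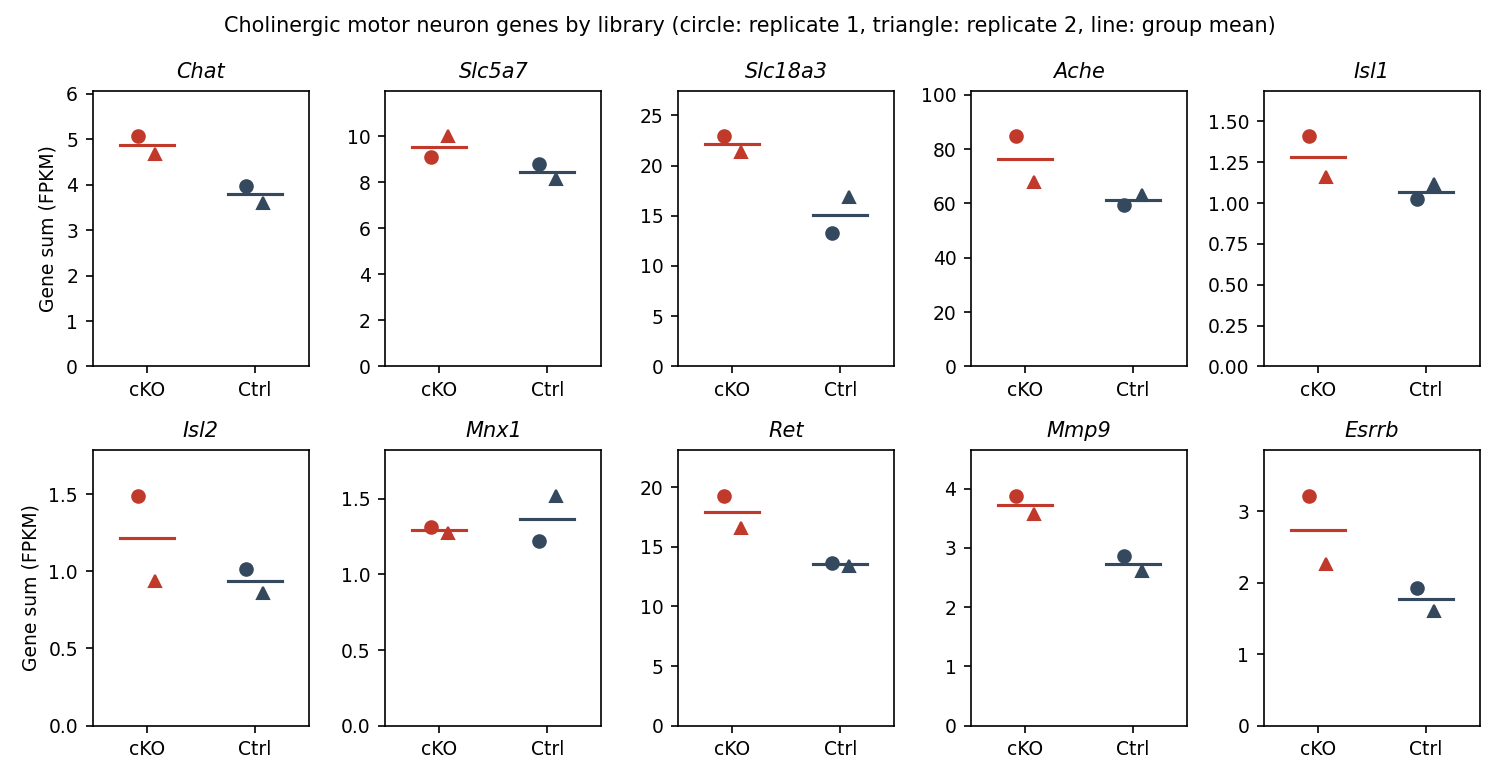
Level of each gene in FPKM (vertical axis, from 0, scaled per gene) in the cKO and Ctrl libraries, with circles for replicate 1, triangles for replicate 2 and lines for group means. Isl2 and Mnx1 are the panels in which the groups overlap.

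In the main fit the machinery of acetylcholine differed most in its vesicle loader. Without Ctrl 1 that lead was small, at a log2 fold change of 0.37 for Slc18a3 and 0.35 for Chat. Slc18a3 was at 22.9 and 21.4 FPKM in cKO 1 and 2, against 13.3 and 16.8 FPKM in Ctrl 1 and 2. Both cKO libraries were above both controls, and the controls differed from each other more than the cKO libraries did. Slc18a3 averaged 22.1 ± 1.06 FPKM in cKO and 15.05 ± 2.53 FPKM in Ctrl (SD, n = 2 each). The log2 fold change was 0.54 ± 0.16 (SE, 95% interval 0.22 to 0.85, limma adjusted p = 0.0213). The lower value of the controls came from Ctrl 1, the library with the high Schwann cell and meninges genes. Without Ctrl 1 the log2 fold change of Slc18a3 was 0.37 (limma adjusted p = 0.267), and without cKO 1 it was 0.49 (adjusted p = 0.255). With 1 library left in a group, its spread is taken to be that of the other group and of all genes, here and wherever a library is left out below. With the replicate number as a block the adjusted p was 0.0518.

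Chat, the synthesizing enzyme, shared the direction without passing. It was at 5.06 and 4.67 FPKM in cKO 1 and 2 and at 3.98 and 3.60 FPKM in Ctrl 1 and 2, with no overlap. Its log2 fold change was 0.29 ± 0.15 (SE, 95% interval -0.01 to 0.60, limma adjusted p = 0.231). The level of Slc18a3 over that of Chat, both in FPKM, was 4.52 and 4.58 in cKO 1 and 2 and 3.33 and 4.67 in Ctrl 1 and 2. This ratio therefore overlapped between the groups, and Ctrl 1 was the library that stood lower. The summed level of the locus was 27.95 and 26.1 FPKM in cKO 1 and 2, against 17.2 and 20.4 FPKM in Ctrl 1 and 2 (log2 fold change 0.50 ± 0.16, limma adjusted p = 0.0329). Slc18a3 made up most of this sum in every library, so the value largely repeats that of Slc18a3 and adds nothing separate on Chat. The sum was not fitted with a library left out.

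Slc5a7 (chr17:54412915-54438359), the choline transporter, differed least among the machinery genes in the main fit. It was at 9.11 and 9.99 FPKM in cKO 1 and 2 and at 8.78 and 8.15 FPKM in Ctrl 1 and 2, and the gap between the groups was smaller than that within either. Its log2 fold change of 0.16 had a 95% interval of -0.15 to 0.46. Ache (chr5:137729505-137735691), the esterase, was the most abundant of the 10, at 84.7 and 67.98 FPKM in cKO 1 and 2 and at 59.6 and 62.99 FPKM in Ctrl 1 and 2. cKO 1 stood above the other libraries, and the log2 fold change was 0.30 ± 0.18 (limma adjusted p = 0.303), or 0.15 without cKO 1. The antisense noncoding gene Gm42456 shares 98 exon bases with Ache in GENCODE M21, and fragments there cannot be assigned to a strand with the library kit that the labels name. Ache is known to be made by other neurons as well.

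The transcription factors that specify motor neurons were near the lower limit of the test. Isl1 (chr13:117088478-117099896) and Isl2 (chr9:55388956-55393985) encode LIM homeodomain proteins that set motor neuron identity, and Isl1 is also made by sensory neurons. Isl1 was at 1.41 and 1.16 FPKM in cKO 1 and 2 and at 1.03 and 1.11 FPKM in Ctrl 1 and 2, a log2 fold change of 0.14 (95% interval -0.18 to 0.46). Isl2 was at 1.49 and 0.938 FPKM in cKO 1 and 2 and at 1.01 and 0.86 FPKM in Ctrl 1 and 2. cKO 1 alone stood apart for Isl2, the groups overlapped, and without cKO 1 the log2 fold change was 0.00. Isl2 also reached the filter of a mean of 1 FPKM only through cKO 1, its Ctrl mean being 0.936 FPKM. As few as 1.14 kilobases of sequence were aligned to Isl2 in a library, so differences of this size were at the edge of what the depth can show.

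Mnx1 (chr5:29800363-29805010), the homeodomain factor HB9 of somatic motor neurons, was the 1 gene of the 10 with a lower mean in cKO. It was at 1.31 and 1.27 FPKM in cKO 1 and 2 and at 1.22 and 1.52 FPKM in Ctrl 1 and 2, and both cKO values lay between those of the controls. The log2 fold change was -0.04 (95% interval -0.36 to 0.28), and its sign turned to 0.05 without Ctrl 2 and to 0.01 under quantile scaling.

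Genes of motor neuron subtypes and trophic support came next to Slc18a3 in size in the main fit, on the log2(FPKM + 1) scale. By the ratio of mean FPKM, cKO over Ctrl, Esrrb (1.55) was above Slc18a3 (1.47), while Mmp9 (1.36) and Ret (1.33) were below it. With a pseudocount of 0.1 the log2 fold change was 0.59 for Esrrb and 0.56 for Slc18a3. The order of Esrrb and Slc18a3 thus depended on the scale. Esrrb (chr12:87702067-87862578) was at 3.22 and 2.27 FPKM in cKO 1 and 2 and at 1.93 and 1.61 FPKM in Ctrl 1 and 2, with cKO 1 well above the rest. Its log2 fold change was 0.43 ± 0.16 (95% interval 0.10 to 0.75, limma adjusted p = 0.0816). It passed without cKO 2 (adjusted p = 0.0448) and without Ctrl 1 (adjusted p = 0.0368), and without cKO 1 it was at 0.24 (adjusted p = 0.82).

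Ret (chr6:118101766-118147762), the receptor tyrosine kinase for GDNF family ligands, was at 19.3 and 16.6 FPKM in cKO 1 and 2 and at 13.6 and 13.4 FPKM in Ctrl 1 and 2. The groups did not overlap and the controls lay close together, but the log2 fold change of 0.38 ± 0.15 did not pass (95% interval 0.07 to 0.69, limma adjusted p = 0.109). Of its 2 listed transcripts, that of 7341 bases carried 97.0% and 96.7% of the gene sum in cKO 1 and 2 and 95.9% and 99.0% in Ctrl 1 and 2, so isoform use did not separate the groups. Mmp9 (chr2:164773751-164781346), a matrix metalloprotease that marks fast motor neurons, was at 3.88 and 3.57 FPKM in cKO 1 and 2 and at 2.86 and 2.60 FPKM in Ctrl 1 and 2. The groups did not overlap, and the log2 fold change was 0.34 ± 0.15 (95% interval 0.03 to 0.65, limma adjusted p = 0.153).

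**Figure D3:**
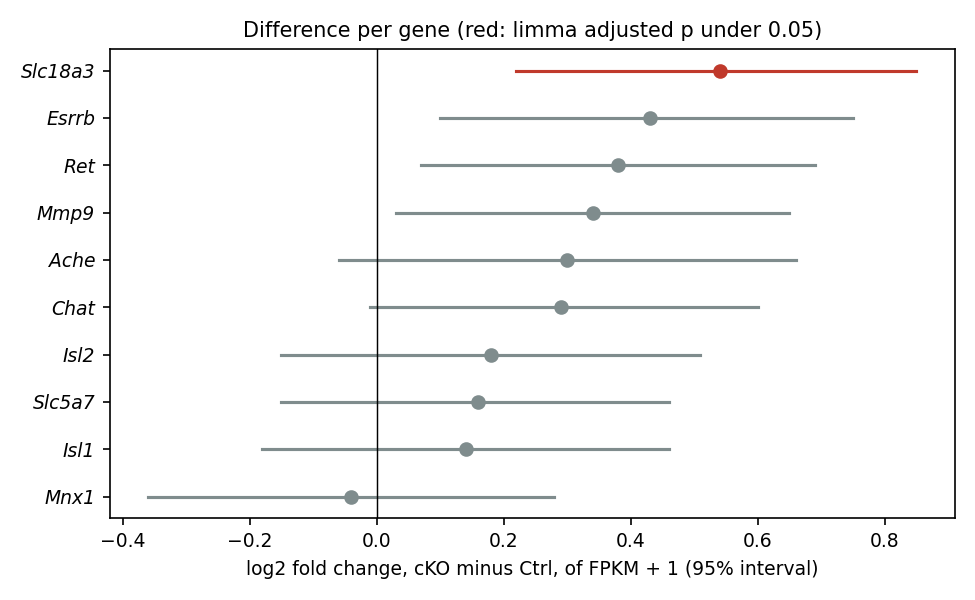
Log2 fold change (cKO minus Ctrl, on log2(FPKM + 1)) of each gene with its 95% interval from limma, drawn in red where the adjusted p was under 0.05. Slc18a3 at 0.54 is the red point, and the intervals of Esrrb, Ret and Mmp9 also lie above 0 without passing the adjustment.

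The order of levels was the same in cKO and Ctrl cords by group mean, on the FPKM scale, which is per length. Ache came first, followed by Slc18a3, Ret, Slc5a7, Chat, Mmp9, Esrrb, Mnx1, Isl1 and Isl2. In cKO the ranges of Mnx1 and Isl1 overlapped, and so did those of Isl1 and Isl2. In Ctrl the ranges of Slc18a3 and Ret overlapped, and no other neighbours did.

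Within the cKO group the 2 libraries were not alike for these genes. cKO 1 was above cKO 2 for 9 of the 10, with Slc5a7 as the exception, and Ctrl 1 was above Ctrl 2 for 6. The shares of all gene sums that did so were not computed, so these counts are not read as particular to these genes. Each cKO library on its own lay above both controls for most of the genes, cKO 1 for 9 and cKO 2 for 8, where 42.2% and 28.8% of all gene sums did so. The median log2 difference of the 10 genes from the Ctrl mean was 0.38 in cKO 1 and 0.23 in cKO 2, against 0.03 and -0.03 for all gene sums.

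Neuron genes in general mostly had higher values in cKO cords as well. For 20 of these, the median log2 difference from the Ctrl mean was 0.36 in cKO 1 and 0.19 in cKO 2. Of the 20, 19 had a positive log2 fold change, against 49.5% of all gene sums, and the median was 0.26. By limma 2 rose and none fell, where 4.13% and 6.54% of all gene sums did so. Gap43, a growth cone protein, was at 319 and 245 FPKM in cKO 1 and 2 and at 170 FPKM in both Ctrl libraries (limma adjusted p = 0.0253), and the vesicular GABA transporter Slc32a1 also rose (adjusted p = 0.0349). Tubb3 had the next smallest p and did not pass (0.69 ± 0.24, adjusted p = 0.0552). None of the 20 rose without cKO 1, without Ctrl 2 or with a replicate block, and 4 rose without cKO 2. Gap43 (adjusted p = 0.249) and Slc32a1 (0.0673) also missed the threshold without Ctrl 1, and Slc32a1 did so under each of the 3 other scalings. The size of the neuron shift depended on single control libraries: the neuron median was 0.12 without Ctrl 2 and 0.40 without Ctrl 1, while that of the 10 motor neuron genes was 0.26 and 0.31.

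Set beside the neuron median of the same library, the motor neuron genes lay on both sides of it. Slc18a3 was above that median by 0.22 and 0.30 on the log2 scale in cKO 1 and 2, against -0.21 and 0.21 in Ctrl 1 and 2. Chat was at -0.02 and 0.05 in cKO 1 and 2, and Mnx1 was at -0.39 and -0.25. Whether the motor neuron genes differ from other neuron genes was not tested.

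**Figure D4:**
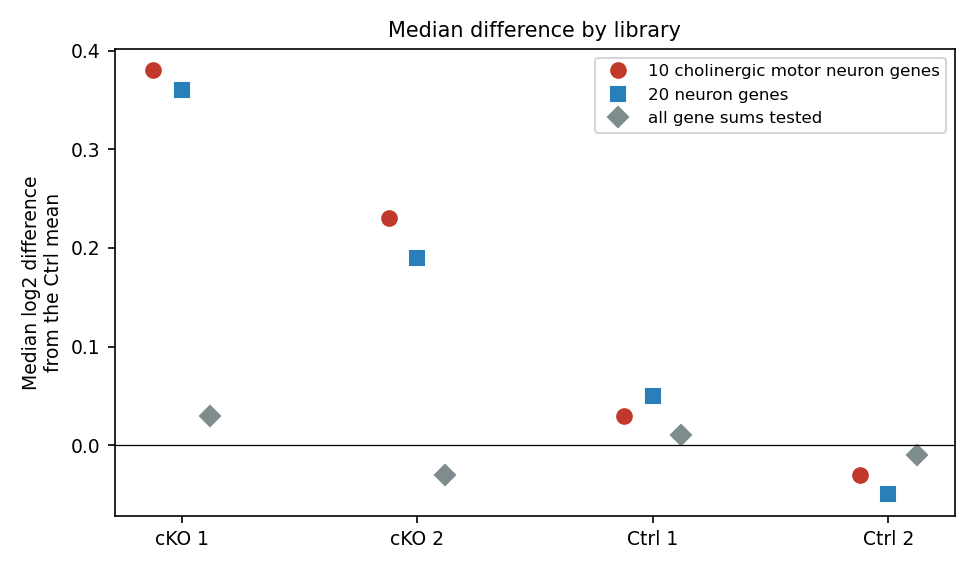
Median log2 difference from the Ctrl mean (vertical axis) in each library for the 10 cholinergic motor neuron genes, 20 neuron genes and all gene sums tested. The first 2 sets lie together in each library, at 0.38 and 0.36 in cKO 1, while the median of all gene sums stays within 0.03 of 0.

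Other genes of motor and cholinergic neurons were listed too, and 13 of 16 reached a mean of 1 FPKM. Of these, 9 had a positive log2 fold change, against 49.5% of all gene sums, with a median of 0.26. By limma 1 rose and none fell, where 4.13% and 6.54% of all gene sums did so. The gene that rose was Etv4, an ETS transcription factor of some motor pools, at 27.6 and 24.3 FPKM in cKO 1 and 2 against 13.8 and 15.1 FPKM in Ctrl 1 and 2 (log2 fold change 0.80 ± 0.16, limma adjusted p = 4.22e-04). Etv4 is also made by other cells, and it rose as well without each library in turn. It missed the threshold with no filter on low values (adjusted p = 0.0705), with rows of any length summed (0.0802) and on transcript rows (0.197). Kcng4, a potassium channel subunit of fast motor neurons, pointed the other way, at 3.73 and 3.63 FPKM in cKO 1 and 2 and at 5.09 and 5.56 FPKM in Ctrl 1 and 2, and did not pass (-0.43 ± 0.15, adjusted p = 0.0559). Nkx6-1, a progenitor and motor neuron homeodomain factor, did not pass either (0.36 ± 0.16, adjusted p = 0.143). With a robust form of the moderation Kcng4 fell past the threshold (limma adjusted p = 0.0451).

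Lhx3 and Lhx4, from the same list, lay under the filter and were chosen for mention after their values were seen. Lhx3, the LIM homeodomain partner of Isl1 in motor neurons, was at 1.10 and 1.06 FPKM in cKO 1 and 2 and at 0.464 and 0.502 FPKM in Ctrl 1 and 2. Its relative Lhx4 was at 0.718 and 0.692 FPKM in cKO 1 and 2 and at 0.548 and 0.214 FPKM in Ctrl 1 and 2. For both genes the cKO libraries lay above the controls, with no test at this level.

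Of 18 acetylcholine receptor genes and partners of acetylcholinesterase, 10 were tested. Of these, 2 rose, both receptor subunits, and 2 fell, an esterase and an esterase anchor, where 4.13% and 6.54% of all gene sums did so. The median of the 10 was 0.26, but -0.01 without Ctrl 2 and 0.50 without Ctrl 1. The nicotinic receptor subunits Chrna3 (4.41 and 3.59 FPKM in cKO 1 and 2, 2.66 and 2.14 FPKM in Ctrl 1 and 2, limma adjusted p = 0.0152) and Chrna4 (adjusted p = 0.0203) rose. Bche, the butyrylcholinesterase that also splits acetylcholine, fell to 0.892 and 1.58 FPKM in cKO 1 and 2, against 4.32 and 3.45 FPKM in Ctrl 1 and 2 (-1.14 ± 0.16, adjusted p = 4.6e-06). Prima1, the membrane anchor of acetylcholinesterase, fell to 6.65 and 8.41 FPKM in cKO 1 and 2, against 10.2 and 11.7 FPKM in Ctrl 1 and 2 (-0.49 ± 0.15, adjusted p = 0.0312). None of the list rose without cKO 1 or without Ctrl 2, and 5 rose without Ctrl 1. Under TPM scaling neither Chrna3 (adjusted p = 0.0933) nor Chrna4 (0.0672) passed, and Chrna4 missed under quantile scaling too (0.0598). Bche still fell without each library in turn, but not with no filter on low values (adjusted p = 0.0805), with rows of any length summed (0.0813) or on transcript rows (0.225). Prima1 did not pass without cKO 1, without Ctrl 2, with the replicate block (adjusted p = 0.0801) or under any of the 3 other scalings (0.0781 to 0.105).

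None of the 4 tested of 8 genes for GDNF family ligands and coreceptors passed by limma in the main fit. Their median was 0.28 and all 4 were positive, against 49.5% of all gene sums. Gfra2, a coreceptor of Ret, came nearest, at 17.5 and 15.0 FPKM in cKO 1 and 2 and at 12.7 and 10.6 FPKM in Ctrl 1 and 2 (limma adjusted p = 0.0559, and 1 of the 4 by unadjusted p under 0.05). With a robust form of the moderation Gfra2 passed (limma adjusted p = 0.0346). Gfra1 and Gfra4 were at 0.27 each on the log2 scale, and Gfra4 turned to -0.04 without cKO 1.

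**Figure D5:**
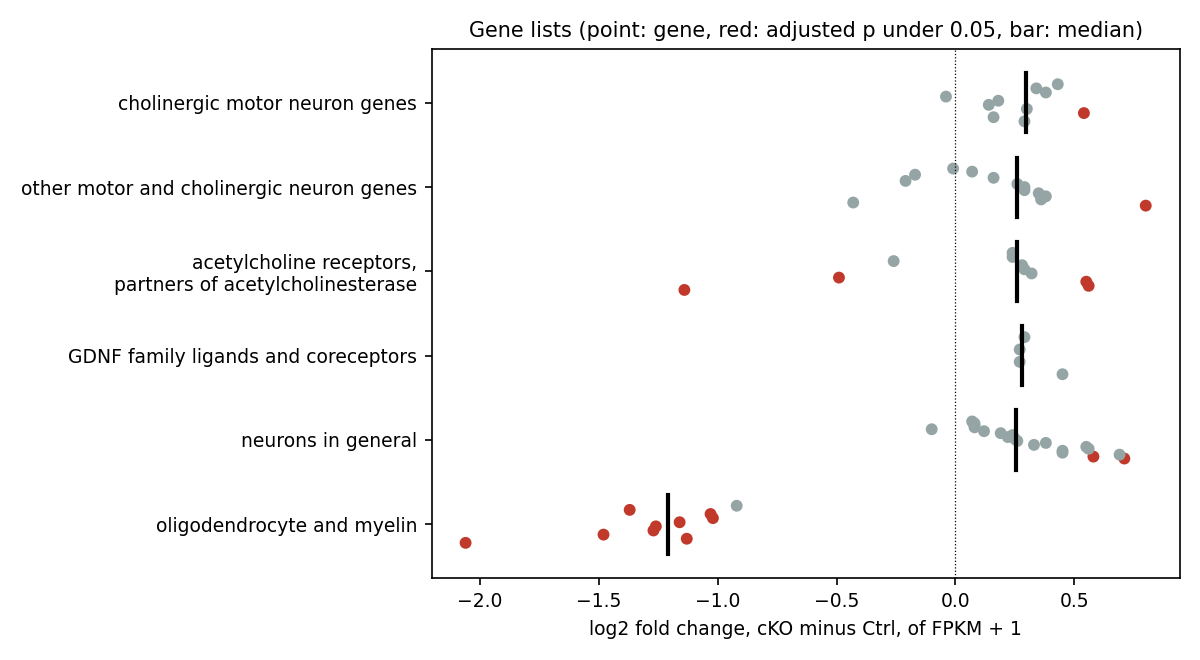
Log2 fold changes (cKO minus Ctrl, on log2(FPKM + 1)) of single genes in 6 sets, as points in red where the limma adjusted p was under 0.05, with a bar at each median. The 5 neuronal sets have medians between 0.26 and 0.30, which spread from -0.01 to 0.42 without Ctrl 2, and the oligodendrocyte and myelin set has a median of -1.21.

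Several of the 10 genes are also made outside motor neurons, so markers of those cells were read in the same libraries. The summed level of 9 sensory ganglion genes was 6.43 and 5.23 FPKM in cKO 1 and 2 and 4.44 and 4.20 FPKM in Ctrl 1 and 2. The difference came from Pou4f1, which is also made within the cord and which passed (limma adjusted p = 0.0355), though not under any of the 3 other scalings, without cKO 1 (0.605) or without Ctrl 2 (0.0877). The other 8 did not reach the filter and summed to 1.14 and 1.02 FPKM in cKO 1 and 2 and to 1.22 FPKM in both Ctrl libraries. Of these 8, 2 (P2rx3 and Avil) were lower in both cKO libraries than in either control, and 0 were higher. Over all gene sums tested, 29.3% were lower in this way and 24.3% higher. Those gene sums reached the filter and these 8 did not, so the shares are not a like comparison. The genes Scn10a, Scn11a, Mrgprd and Prdm12 were under 0.1 FPKM in every library. Their part in the values of Ret and Isl1 was not tested. The summed level of 10 neutrophil genes, relevant because neutrophils make Mmp9, was 9.36 and 5.12 FPKM in cKO 1 and 2 and 3.66 and 1.65 FPKM in Ctrl 1 and 2. Most of it was S100a8, at 3.31 and 2.0 FPKM in cKO 1 and 2 and at 0.906 and 0.778 FPKM in Ctrl 1 and 2, and S100a9, at 3.39 and 1.72 FPKM in cKO 1 and 2 and at 1.14 and 0.424 FPKM in Ctrl 1 and 2. Both reached the filter only through the cKO libraries, their Ctrl means being 0.842 and 0.782 FPKM, so no test of them is given. The other 8 did not reach it. They summed to 2.66 and 1.41 FPKM in cKO 1 and 2 and to 1.61 and 0.446 FPKM in Ctrl 1 and 2, which overlap. Of these 8, 2 (Camp and Mpo) were higher in both cKO libraries than in either control, and 0 were lower. The shares over all gene sums tested were 24.3% and 29.3%, again of genes that reached the filter and so not a like comparison. Elane and Cebpe were under 0.1 FPKM in every library. The part of neutrophil RNA in the level of Mmp9 was not tested. The summed level of 10 skeletal muscle genes was 3.59 and 3.64 FPKM in cKO 1 and 2 and 2.19 and 2.70 FPKM in Ctrl 1 and 2, with Chrnd under 0.1 FPKM in every library.

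Across 11906 named gene sums, Lphn1 and Edc4 were among the 3 whose profiles lay nearest to the median profile of Chat, Slc5a7, Slc18a3 and Ache over the 4 libraries, at a Euclidean distance of 0.062 each on the centred log2 scale. With 4 libraries such likeness is common, and 129 gene sums lay within 0.1.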

How the data were processed

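Total RNA of frozen cords was extracted with Trizol and made into libraries with a TruSeq RNA kit, per the labels' protocols. The authors deposited 1 table per library with FPKM and with coverage, the mean signal along each transcript, per the file headers. The submitters' processing notes name CASAVA, TopHat, Cufflinks, Cuffdiff and the build mm9, without tool versions. Of 28107 transcript rows, 315 were not marked OK in all libraries and were left out, and FPKM was summed per symbol over rows of at least 300 bases. Starts were raised by 1 to count from 1.

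Gene sums with a mean of at least 1 FPKM were tested as log2(FPKM + 1) with limma 3.58.1 in R 4.3.3, with a mean-variance trend and Benjamini-Hochberg adjustment over 12913 gene sums. With 36.3 prior degrees of freedom and 2 residual ones, each gene's spread is mostly that of all genes. The median moderated standard deviation was 0.156. Read totals are unknown, and 1314 and 1818 megabases in cKO 1 and 2 and 1218 and 582 megabases in Ctrl 1 and 2 were aligned to transcripts. The fit was checked on simulated data. The alternatives were another pseudocount, filter, scaling, moderation or summing, a replicate block and leaving out each library. Genes named are the 10 members, Chd7, up to 3 per list by smallest p with those past the threshold, and the 3 nearest profiles; a few such genes are not reported here. The members, the lists, the motifs and the use of gene sums were chosen with earlier results of these data known.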

Additional observations from a re-analysis of the deposited data

How the results depend on the processing

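Of 14 alternative settings, Slc18a3 passed under 6 and missed the threshold under 8, with log2 fold changes from 0.37 to 0.70 and adjusted p from 0.00663 to 0.27. The count of the 10 genes that rose, 1 as reported, was 0 with no filter on low values, under TPM scaling (adjusted p = 0.064 for Slc18a3), under quantile scaling (0.0641), with rows of any length summed, on transcript rows and with the replicate block (0.0518). Leaving out each library gave counts from 0 to 2 and medians of the 10 genes from 0.23 to 0.38. None of the 10 fell under any of these 14 settings. The log2 fold change of Mnx1 turned to 0.01 under quantile scaling and to between -0.14 and 0.05 without each library in turn, and that of Gfra4 ran from -0.04 without cKO 1 to 0.57 without cKO 2. The cause was not tested. The numbers pair no libraries by the labels, and deviations of same-numbered libraries correlated at -0.241 across genes. Crossed numbers, chosen after seeing the data, gave 2 calls among the 10. Over all gene sums the calls numbered 1378, against 55 with no filter, 53 with rows of any length, 20 on transcript rows, 638 and 736 under TPM and quantile scaling, and 385 without cKO 1. Among neuron genes the count that rose ran from 0 to 5 under the same 14 settings. None of the other motor and cholinergic neuron genes, receptor genes, esterase partners or neuron genes passed with no filter, with rows of any length or on transcript rows. Depth was lowest in Ctrl 2, which limits Isl1, Isl2 and Mnx1 most.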
